A study of Mus musculus with 6 samples.

Results

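The genes described here are 10 mouse genes of nucleic acid sensing: the PYHIN genes Ifi203, Ifi204, Ifi207, Ifi209, Ifi211, Mndal and Aim2, and the sensors and adaptor Zbp1, Ifih1 and Mavs. They were chosen by name, with results of the knockout comparison known, from the 56748 genes of the deposited table, and all 10 are among the 17114 genes that passed the filter on low values (a mean of at least 1 normalized read). Their own fold changes are therefore given as a description, with no p-value. Where the text says whether one of them passed the threshold of the fit across all genes, that too is a description and no evidence for the gene. Ribosome footprints, the RNA fragments of 24 to 36 nucleotides that a translating ribosome shields from nuclease, had been sequenced from Lin-c-Kit+ cells, a gate for blood progenitors (cell type in the labels: hematopoietic stem cells). The groups were 3 libraries of wild-type cells (WT) and 3 of Mov10 knockout cells, and the mice of both groups had received 4.5 Gy of ionizing radiation 12 days earlier. The series asks in which genes footprint abundance differs when Mov10, an RNA helicase, is missing. The sources used here give neither age nor strain nor the extent of the deletion, and nothing in them says whether the replicates came from separate animals, so a p-value measures only the spread between these libraries.

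PYHIN proteins carry a pyrin domain, a HIN domain or both. The HIN domain binds double-stranded DNA, and the pyrin domain joins other pyrin proteins. Aim2 is the cytosolic DNA sensor that builds an inflammasome with the adaptor Pycard, and Ifi204 is the mouse gene most often set beside human IFI16, a DNA sensor and regulator of transcription. Zbp1 recognises left-handed Z-form nucleic acid and can start Ripk3-dependent cell death. Ifih1, also called MDA5, recognises long double-stranded RNA and signals through Mavs, the adaptor on the mitochondrial outer membrane, to type I interferon. Many of these genes are themselves induced by interferon.

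The PYHIN genes lie side by side on chromosome 1, and the windows before the starts of several of them carry a shared element, which is why those windows are shown. The element searched was GAAA, any 2 bases, and GAAA again, on either strand, the paired core of the interferon-stimulated response element, in the 250 bases before and 50 bases after each start listed by RefSeq (build GRCm38.p6). In each window below, of 30 bases and read on the gene's strand, the capitals mark the match. The first 4 are from members and the last 2 from neighbouring PYHIN genes.
Ifi203: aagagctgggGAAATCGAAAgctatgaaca
Mndal: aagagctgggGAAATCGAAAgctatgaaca
Ifi207: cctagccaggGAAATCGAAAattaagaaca
Ifi211: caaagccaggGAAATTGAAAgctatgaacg
Ifi206: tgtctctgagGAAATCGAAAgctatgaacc
Ifi214: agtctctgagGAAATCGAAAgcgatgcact
All 6 windows are on the minus strand, at chr1:173942508-173942537 for Ifi203, chr1:173880204-173880233 for Mndal, chr1:173741831-173741860 for Ifi207, chr1:173913064-173913093 for Ifi211, chr1:173491339-173491368 for Ifi206 and chr1:173536017-173536046 for Ifi214. The windows of Ifi203 and Mndal are the same at all 30 bases. Ifi203 and Ifi211 share 24 of 30 bases, and Ifi203 and Ifi207 share 22. The match begins between -35 and -41 from the start in the 4 member windows. Ifi203 has a further listed start with no match, and Mndal has another with a match on the opposite strand.

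The promoter table matched 8 of the 10 genes, all but Ifi204 and Zbp1. The element was in 5 of the 8 (Ifi203, Ifi207, Ifi211, Mndal and Ifih1), and in 5 of 6 neighbouring PYHIN genes with an entry (Ifi205, Ifi206, Ifi208, Ifi213 and Ifi214). Among all 27025 genes with a promoter entry, 1079 (3.99%) held it. A longer form, with CT after the second GAAA, was in 0 of the 8 genes and in 82 of all genes (0.303%). Aim2, Ifi209 and Mavs held no match in this window. These are matches of letters, not measured binding sites, and no binding data were used.

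The footprint libraries were shallow, and depth went with genotype. WT libraries held 2260348 to 2499634 reads assigned to genes and knockout libraries 1118345 to 1352517, so depth and genotype cannot be told apart, although the values are scaled per library. Values below are normalized reads, the authors' counts divided by 1 factor per library. By that scale 3 reads equal 1.84 to 2.04 in a WT library and 4.02 to 4.85 in a knockout library, and a value under that floor cannot be told from 0. A footprint level reflects the amount of an mRNA as well as its translation, mRNA libraries were not analysed here, and in a bulk sample fewer cells of a type and less RNA per cell cannot be told apart. Mov10 itself (chromosome 3) was at 110, 106 and 104 in the WT libraries and at 51.0, 89.0 and 46.3 in the knockout libraries. It was thus lower in 3 of 3 knockout libraries but not absent, and the limma fit across all genes did not call it (log2 fold change -0.84 ± 0.27 SE, adjusted p = 0.0598). It was called in 5 of 21 alternatives, 1 of them the fit without knockout replicate 2 (-1.12).

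Markers of several cell types moved with genotype. Each of the 8 marker lists, progenitor markers included, had reads in both groups, and no marker was at 0 throughout a group. The progenitor markers Kit, Cd34, Myb, Gata2 and Flt3 summed to 3364 to 3424 in WT and 3548 to 4073 in knockout libraries, with 1 called higher. The 6 erythroid markers summed to 1162 to 1258 in WT and 2780 to 2867 in knockout, with 5 called higher, and the 6 B cell markers to 220 to 228 and 415 to 463, with 3 called higher. The 10 monocyte and macrophage markers summed to 2723 to 3079 and 2470 to 2921, with 1 called higher and 1 lower. The 6 dendritic markers summed to 1309 to 1407 and 919 to 1291 (1 higher, 1 lower), the 6 T and NK cell markers to 298 to 361 and 208 to 241 (1 lower), the 6 neutrophil markers to 16354 to 18875 and 13924 to 14978 (1 higher, 3 lower), and the 6 stromal and endothelial markers to 255 to 322 and 357 to 479 (2 higher, 1 lower). Their part in the results below was not tested.

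Ifi203, Mndal, Ifi207, Aim2 and Zbp1 were lower in the knockout and Ifi204 was higher. Across all tested genes, 3628 of 17114 (21.2%) were called at an adjusted p under 0.05 by limma, 1757 higher (10.3%) and 1871 lower (10.9%), with a median log2 fold change of -0.17. Of all calls 48.4% were higher, a share that was 62.7% under upper-quartile scaling and 30.8% with library totals. Without WT replicate 1, 2 or 3 the calls over all genes numbered 1449, 1284 and 1239. Of the 10 genes, 6 passed that threshold, 1 higher and 5 lower, and 7 had no overlap between the groups (1 higher, 6 lower), against 39.8% of all genes. Since the genes were chosen with this contrast known, nothing is read from these shares.

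**Figure D1:**
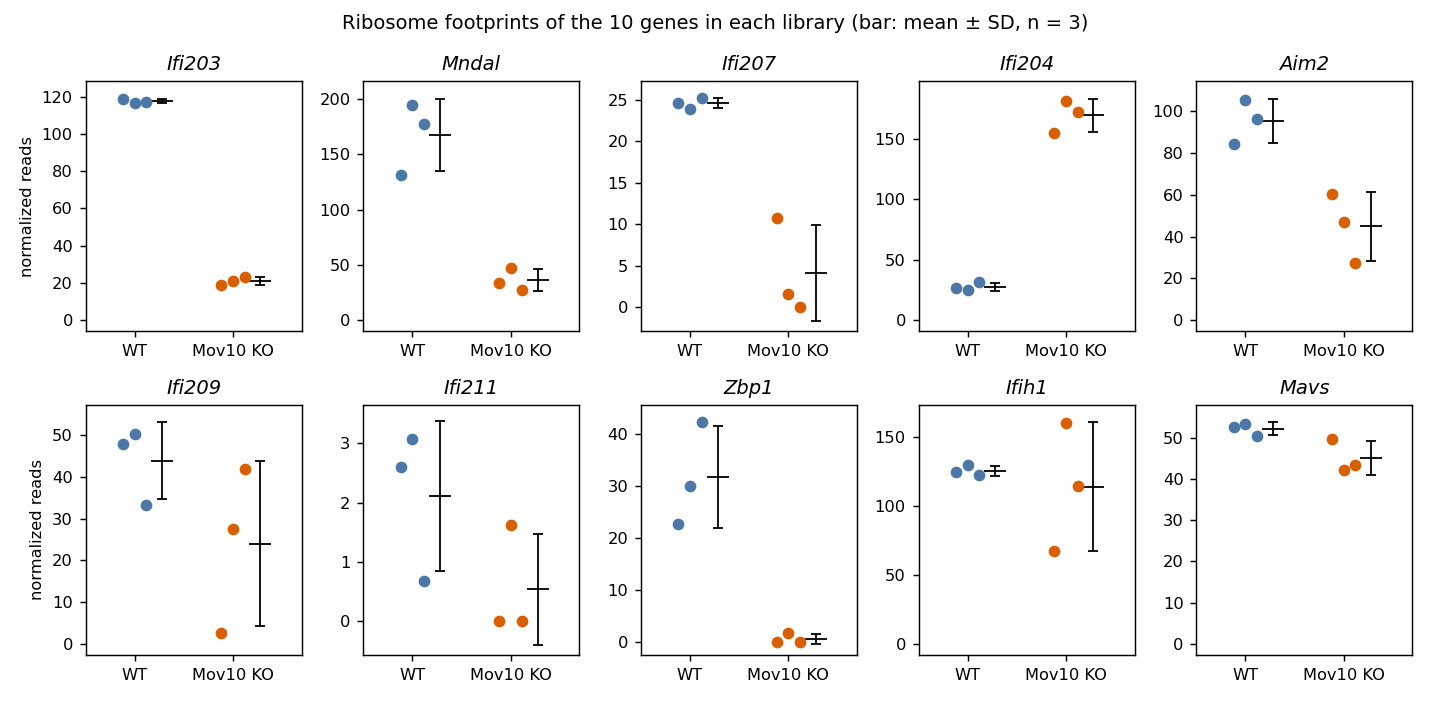
Normalized footprint reads of each of the 10 genes (vertical axes, linear, each with its own range) in the 3 WT and 3 Mov10 KO libraries; points are libraries, and the bar beside them is the mean ± SD (n = 3). Ifi204 is the gene whose knockout points (154 to 181) all lie above its WT points (25.2 to 31.3), while Ifi209, Ifi211 and Ifih1 overlap between groups.

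Ifi203 is a PYHIN gene at chromosome 1, 173747973 to 173770238, minus strand (GRCm39, as for all gene positions here). Its level was 119, 117 and 117 in the WT libraries and 18.8, 21.0 and 23.2 in the knockout libraries, means of 118 ± 1.14 and 21.0 ± 2.19 (SD, n = 3). The 3 WT values lie closer together than the 3 knockout values, and the groups are far apart. The WT values are also closer together than the counting error of 172 to 190 reads would usually give, so their SD understates the uncertainty. The level was 5.60-fold lower in the knockout, with a log2 fold change of -2.44 ± 0.24 (SE), and rested on 172 to 190 reads in a WT library and 13 to 16 in a knockout library.

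Mndal, myeloid nuclear differentiation antigen like, lies near it at 173676692 to 173708447 on the same strand. Its level was 131, 195 and 177 in WT and 33.5, 46.9 and 27.5 in the knockout, means of 168 ± 32.8 and 36.0 ± 9.94 (SD, n = 3). Both groups vary more than for Ifi203, yet the highest knockout library is well under the lowest WT library. It was 4.66-fold lower, a log2 fold change of -2.20 ± 0.27 (SE). The names of Ifi203 and Mndal cross in RefSeq, where Mndal is also listed as a synonym of Ifi203.

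Ifi207 (173550993 to 173569313, minus strand) is a further copy with few reads. Its level was 24.7, 23.9 and 25.2 in WT and 10.7, 1.62 and 0 in the knockout, which is 37 to 39 reads against 8, 1 and 0. All 3 knockout libraries are below all WT libraries, but they differ widely among themselves and only replicate 1 is above the floor. The means were 24.6 ± 0.641 and 4.12 ± 5.78 (SD, n = 3), 5.98-fold lower, with a log2 fold change of -3.03 ± 0.90 (SE). The WT SD is smaller than the counting error of 37 to 39 reads would usually give. This gene fell below the threshold in 12 of 20 alternative settings, among them without WT replicate 1, 2 or 3 (-3.03, -3.05 and -3.01) and without knockout replicate 2 or 3 (-2.90 and -2.21). Thinning to equal depth was also among these settings (-2.85).

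Ifi204 moved the opposite way to these 3 genes. It lies between Ifi207 and the pseudogene Ifi203-ps, at 173574859 to 173594509 on the minus strand, 5.546 kb from Ifi207. Its level was 26.6, 25.2 and 31.3 in the WT libraries and 154, 181 and 172 in the knockout libraries, from 41, 41 and 46 reads and 115, 112 and 119 reads. Every knockout library is above every WT library, in raw reads as well, although the knockout libraries were the shallower ones. The means were 27.7 ± 3.23 and 169 ± 13.7 (SD, n = 3), 6.11-fold higher in the knockout, with a log2 fold change of 2.57 ± 0.21 (SE). Over the 21 alternatives run the log2 fold change ranged from 2.34 to 2.82.

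**Figure D2:**
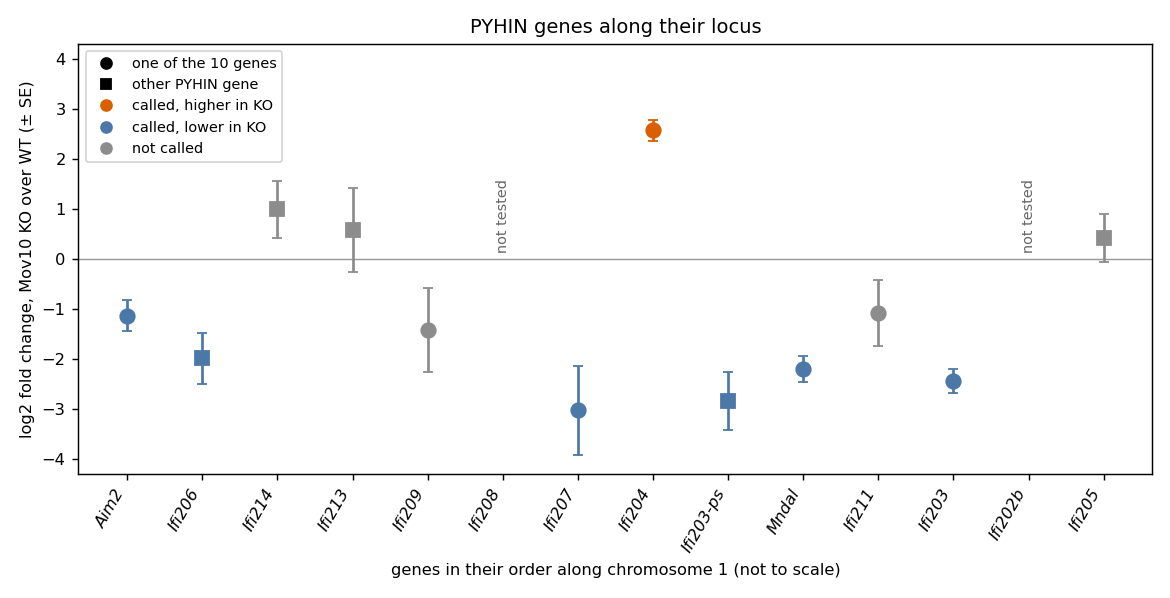
Log2 fold change (knockout over WT, ± SE from limma) of the PYHIN genes in their order along chromosome 1, not to scale; circles are members, squares the other PYHIN genes, and colour marks genes called higher (orange) or lower (blue). Ifi204 at 2.57 stands next to Ifi207 at -3.03 and the pseudogene Ifi203-ps at -2.84.

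The 14 PYHIN genes of the table span 680.9 kb (173178445 to 173859376), and reads of close copies can be shared or assigned to another copy. How the authors assigned reads that match several copies, and whether by strand, is a point the sources used here do not give, so the level of any single copy is uncertain. The 7 PYHIN members together summed to 436, 519 and 481 in WT and to 280, 327 and 292 in the knockout (normalized reads). The sums were 479 ± 41.5 and 299.8 ± 24.1 (SD, n = 3), 1.60-fold lower in the knockout, with every knockout library under every WT library. The knockout to WT ratio of that sum was 0.626, 0.719 under upper-quartile scaling and 0.533 with library totals. Without Ifi204 the other 6 summed to 451 ± 42.2 in WT and 131 ± 13.3 in the knockout, 3.45-fold lower. Ifi204 was the only member of the 7 with a higher mean in the knockout. It was left out with that known, so a larger fall was bound to appear.

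**Figure D3:**
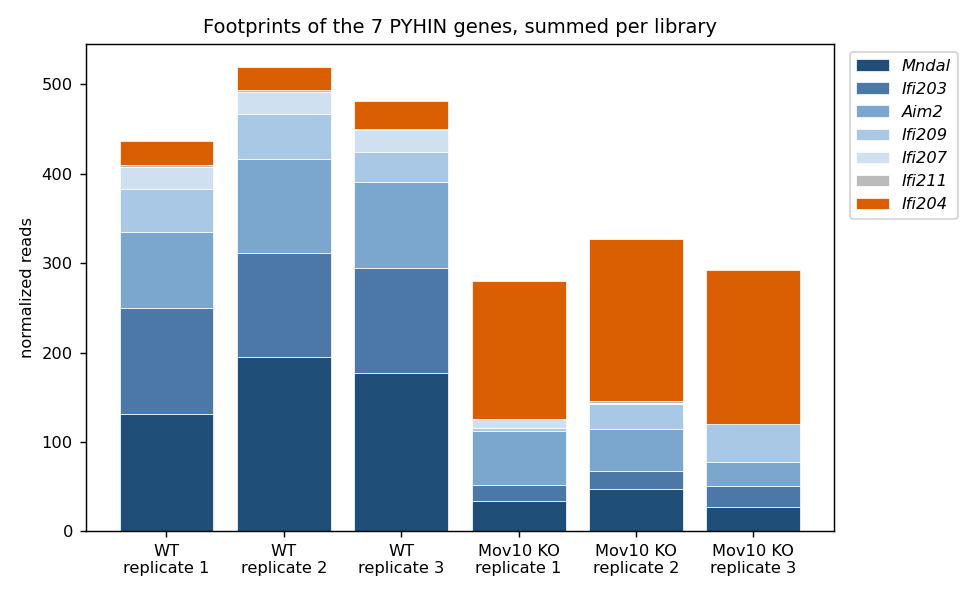
Normalized footprint reads of the 7 PYHIN members stacked for each of the 6 libraries (vertical axis from 0). Ifi204, in orange, is a thin band in the WT bars and over 50% of each knockout bar, while the whole bar is lower in the knockout (280 to 327) than in WT (436 to 519).

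The share of Ifi204 within the family does not depend on library scaling. It took 6.10%, 4.85% and 6.52% of the 7 genes' reads in the WT libraries, with exact 95% binomial (Clopper-Pearson) intervals of 4.41 to 8.19, 3.50 to 6.52 and 4.81 to 8.60. In the knockout libraries it took 55.0%, 55.4% and 58.9%, with intervals of 48.0 to 61.9, 48.3 to 62.4 and 51.8 to 65.8. These intervals cover counting error only. The share was 5.82% ± 0.869 in WT and 56.5% ± 2.13 in the knockout (SD, n = 3). Ifi204 was singled out with its direction known, so a higher share in the knockout was bound to appear.

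Ratios between genes of the same locus, each taken per length of gene, show the same data without any scaling. The listed gene length, which is not a coding length, sets the level of a ratio but cancels when the groups are compared. The Ifi204 level per base over that of Ifi203 was 0.422, 0.406 and 0.504 in WT and 15.5, 16.2 and 14.0 in the knockout, a 34.3-fold higher ratio (32.9 to 36.8 when any 1 library was left out). Over Mndal it was 0.205, 0.130 and 0.178 in WT and 4.64, 3.89 and 6.32 in the knockout. These pairs were picked with Ifi204 known to be higher and the other gene lower, so a higher ratio was bound to appear. The ratio of Mndal to Ifi203 was 2.67 ± 0.544 in WT and 3.24 ± 0.978 in the knockout (SD, n = 3). The groups overlap in that ratio. Whether the shared element plays a part in these ratios was not tested, and Ifi204 had no promoter entry. Ifi203, Ifi204, Ifi207 and Mndal summed to 337 ± 31.7 in WT and 230 ± 17.9 in the knockout, 1.47-fold lower. The same genes without Ifi204 summed to 309.8 ± 31.4 and 61.1 ± 9.60, 5.07-fold lower. The genes of both sums were picked with their directions known. Ifi204 alone rose among them, so the larger fall without it follows from the choice. Reassignment of reads between the copies was not tested.

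Aim2, the inflammasome sensor, stands at the other end of the locus (173178445 to 173293606, plus strand). Its level was 84.4, 106 and 96.1 in WT and 60.3, 46.9 and 27.5 in the knockout, so the groups do not overlap but the knockout libraries spread over more than a factor of 2. The means were 95.3 ± 10.6 and 44.9 ± 16.5 (SD, n = 3), 2.12-fold lower, with a log2 fold change of -1.13 ± 0.31 (SE). It missed the threshold in 9 of 21 alternatives, including the fits without WT replicate 1, 2 or 3 (-1.22, -1.06 and -1.12) and upper-quartile scaling (-0.94). Thinning to equal depth lost the call of Aim2 too (-0.99). Cadm3 overlaps Aim2 on the opposite strand and had 21 reads in all WT and 12 in all knockout libraries.

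Ifi209, listed by RefSeq also as Pyhin1 (173458483 to 173475494, plus strand), did not pass the threshold. Its level was 48.0, 50.3 and 33.4 in WT and 2.68, 27.5 and 42.0 in the knockout, and the groups overlap. Knockout replicate 1, with 2 reads, is far below the other libraries. The log2 fold change was -1.42 ± 0.83 (SE), and -0.34 without that library. Ifi211 (173723911 to 173740612, minus strand) was barely detected, at 2.60, 3.07 and 0.681 in WT and 0, 1.62 and 0 in the knockout. It passed the filter on low values only through the WT libraries, which held 10 reads against 1 in the knockout libraries. The ratio of the pooled and scaled counts was 4.43, with a counting interval of 0.630 to 192 that includes 1.

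The other PYHIN genes had few reads. Of 11 names listed, 7 are in the table and 5 were tested, with 0 called higher, 2 lower and a median log2 fold change of 0.42. Over all tested genes 10.3% were called higher and 10.9% lower. The pseudogene Ifi203-ps was at 6.43 ± 2.37 in WT (SD, n = 3) and had no read in any knockout library, at least 1.46-fold lower against a floor of 3 reads per library in the knockout. It passed the filter on low values only through the WT libraries, so a difference was bound to appear and no p-value is given. Its call was lost without WT replicate 2 or 3 (-2.63 and -2.78), with DESeq2 and after thinning to equal depth (-1.62). Ifi206, whose window is shown above, was at 3.00 ± 0.593 in WT and had no read in the knockout. It too passed the filter only through the WT libraries, its WT level is itself under the knockout floor, and without WT replicate 1, 2 or 3 (-2.06, -1.87 and -2.04) the call was lost. Ifi214, which carries the same element, was at 6.73 ± 1.59 in WT and 14.8 ± 5.90 in the knockout with no overlap, and was not called (limma, adjusted p = 0.261). Ifi205 and Ifi213 overlapped between groups, Ifi208 had only 5 reads, all in WT, and Ifi202b was listed at 0.

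Zbp1, the Z-form nucleic acid sensor on chromosome 2 (173048405 to 173060716, minus strand), nearly disappeared from the knockout libraries. Its level was 22.7, 30.1 and 42.2 in WT and 0, 1.62 and 0 in the knockout, from 35, 49 and 62 reads against 0, 1 and 0. No knockout library reaches the floor of 3 reads, and every WT library is far above it, so the gene passed the filter on low values only through the WT libraries. The ratio of pooled and scaled counts was 64.7, with a counting interval of 11.4 to 2573 that leaves out the spread between libraries. The fitted log2 fold change was -4.52 ± 0.69 (SE), and it moved between -6.90 and -4.03 over the alternatives, since it depends on the pseudocount where a library is at 0. The means were 31.7 ± 9.86 in WT and 0.539 ± 0.934 in the knockout (SD, n = 3).

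The RNA sensor Ifih1 and its adaptor Mavs did not pass the threshold. Ifih1 (chromosome 2, 62426142 to 62476599, minus strand) was at 125, 129 and 122 in WT and 67.1, 160 and 114 in the knockout, so knockout replicate 1 lies below and replicate 2 above every WT library. The means were 125 ± 3.81 and 114 ± 46.5 (SD, n = 3), the log2 fold change was -0.22 ± 0.29 (SE), and it turned to 0.11 without knockout replicate 1. Mavs (chromosome 2, 131075983 to 131089945, plus strand) was at 52.6, 53.4 and 50.4 in WT and 49.6, 42.1 and 43.4 in the knockout. All 3 knockout libraries are below the WT libraries, replicate 1 only just, and the log2 fold change of -0.21 ± 0.25 (SE) is close to the median of all genes. The ratio of Ifih1 to Mavs per length was 0.985 ± 0.0123 in WT and 1.06 ± 0.503 in the knockout (SD, n = 3). For Ifih1 the spread between knockout libraries is wider than the difference between the groups.

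**Figure D4:**
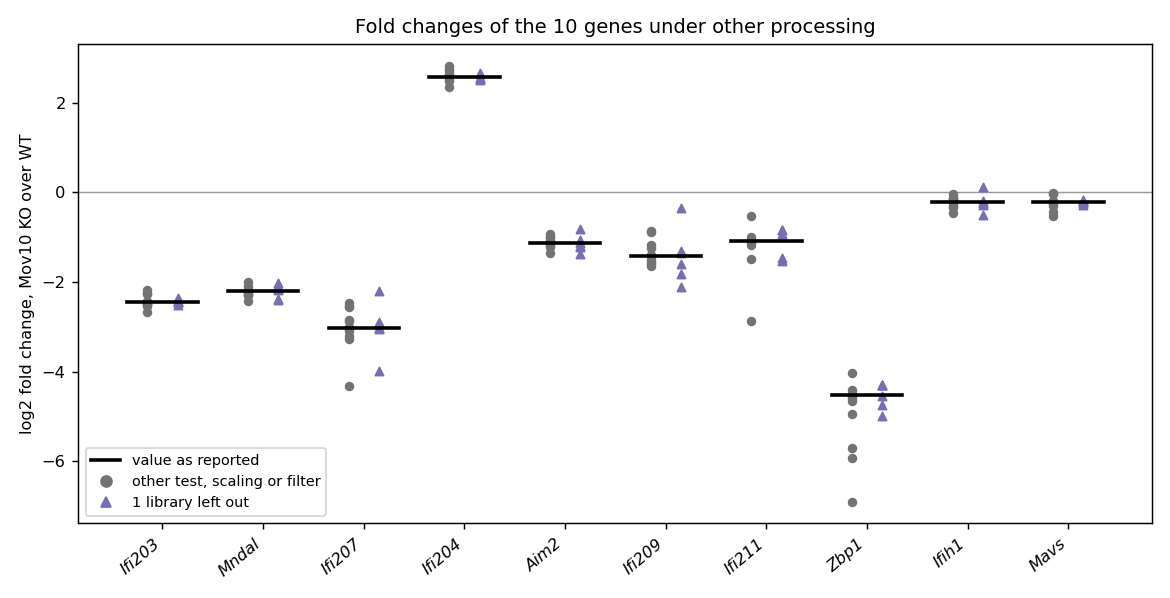
Log2 fold change (knockout over WT) of the 10 genes as reported (black line), under each other test, scaling or filter (grey circles) and with 1 library left out (violet triangles). The values of Ifi203, Mndal and Ifi204 stay on their side of 0 with a wide margin. Those of Zbp1 do too, but it passed the filter only through the WT libraries, so its side was bound to be the lower. The triangle of Ifih1 above 0, at 0.11, is the fit without knockout replicate 1.

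Ordered by level per kilobase of listed gene length, the genes changed places between the groups. Coding lengths were not used, although footprints come from translating ribosomes. The order between genes therefore depends on the listed length, while the change of a gene between the groups does not. In WT, Mndal was highest at 46.7 normalized reads per kilobase, then Aim2 at 27.2, Ifi203 at 17.5, Mavs at 15.6 and Ifih1 at 15.4, followed by Ifi209 at 12.4, Zbp1 at 8.98, Ifi204 at 7.78, Ifi207 at 7.19 and Ifi211 at 1.19. The libraries of Mndal, Aim2 and Ifi203 did not overlap those of the next gene, and neither did those of Ifih1 and Ifi209 or of Ifi207 and Ifi211. Mavs and Ifih1 overlapped, and so did the neighbours from Ifi209 to Ifi207. In the knockout, Ifi204 was highest at 47.5, apart from the next gene, Ifih1 at 13.9, and all later neighbours (Mavs 13.5, Aim2 12.8, Mndal 10.02, Ifi209 6.78, Ifi203 3.13, Ifi207 1.20, Ifi211 0.302 and Zbp1 0.153) overlapped the one before them. Ifi204 was at place 8 in WT and place 1 in the knockout, and Zbp1 at places 7 and 10.

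The authors' deposited table gives log2 fold changes of the same sign for all 10 genes. In the authors' deposited table Ifi204 is at 2.50, Ifi203 at -2.31, Mndal at -2.10, Zbp1 at -3.26, Ifi207 at -1.71, Aim2 at -1.01, Ifi209 at -0.70, Ifi211 at -0.44, Mavs at -0.19 and Ifih1 at -0.14. Its values for genes with few reads, such as Ifi207, are nearer 0 than the -3.03 fitted here.

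The gene with the highest mean of the 10, Ifih1, was most like Ip6k1 (r = 0.997), Cd27 (0.994), Ptpn9 (0.993), Usf1 (0.992) and Foxp4 (0.989) in its log2 levels over the 6 libraries, out of 6307 genes with a mean of at least 50. All 5 were lowest in knockout replicate 1 and highest in replicate 2, as Ifih1 was. The points share libraries and depth, and with 6307 genes to choose from high values of r are given as a description only.

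Other genes of the same pathways were taken from 6 lists. In all, 94 names gave 86 tested genes, of which 8 were called higher and 19 lower, with a median log2 fold change of -0.35 beside -0.17 over all genes. Over all tested genes 10.3% were called higher and 10.9% lower (21.2% in all), and the counts of each list below are to be read beside these shares. Without WT replicate 1, 2 or 3 the 27 calls became 11, 9 and 10, and without any 1 knockout library they became 32. The cause of that difference was not tested.

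Among 22 tested genes of RNA sensing, 2 were called higher and 5 lower, with a median of -0.62. Zc3hav1, the zinc finger antiviral protein, rose from 349 ± 11.5 to 844 ± 31.0 (SD, n = 3; limma, adjusted p = 3.57e-05), and Dhx9, an RNA helicase, from 1076 ± 56.5 to 1932 ± 207. Pcbp2, which promotes turnover of Mavs, fell from 444 ± 16.2 to 163 ± 38.0 and Adar, which edits double-stranded RNA, from 232 ± 17.9 to 106 ± 14.8 (limma, adjusted p = 0.00218). Oas2, an interferon-induced oligoadenylate synthetase, fell from 67.5 ± 5.80 to 8.04 ± 4.68 (limma, adjusted p = 0.00525) and lost its call without WT replicate 1 or 3 (-3.09 and -3.04). Its knockout libraries held 2, 7 and 7 reads, and replicate 1 is under the floor of 3 reads. Trim25, the ubiquitin ligase of the RIG-I pathway, fell from 221 ± 14.2 to 148 ± 15.0 and was not called without WT replicate 1, 2 or 3 (-0.53, -0.60 and -0.61), and Ddx58, which encodes RIG-I, was at 128 ± 6.14 and 103.5 ± 21.5 and was not called (limma, adjusted p = 0.271).

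Among 19 tested genes of DNA sensing, 1 was called higher and 1 lower, with a median of -0.08. Cgas, the cytosolic DNA sensor that signals through Sting1, fell from 61.0 ± 0.914 to 27.8 ± 7.41 (SD, n = 3; limma, adjusted p = 0.0328), and Samhd1, a nucleotide hydrolase, rose from 510 ± 8.44 to 653 ± 20.3 (limma, adjusted p = 0.0165). The log2 fold change of Samhd1, 0.35, was 0.04 under cyclic loess and 0.12 with library totals, neither of them called. Without WT replicate 1, 2 or 3 neither gene was called (-1.14, -1.14 and -1.16 for Cgas, 0.35, 0.34 and 0.37 for Samhd1). Sting1 was at 148 ± 10.03 and 133 ± 11.9, not called.

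Among 15 tested adaptors and kinases, 1 was called higher and 4 lower, with a median of -0.60. Ikbke, a kinase of interferon regulatory factors, rose from 199.997 ± 8.55 to 353 ± 45.1 (SD, n = 3; limma, adjusted p = 0.00381), and Tank, a scaffold of the same kinases, fell from 127 ± 12.8 to 39.1 ± 21.8. The other genes called lower were Traf2 (149 ± 19.2 to 65.7 ± 21.1), Irf5 (79.4 ± 5.83 to 31.8 ± 13.1) and Irf7 (115 ± 3.47 to 50.6 ± 35.2), the last by a narrow margin (limma, adjusted p = 0.0450) and with 1 knockout library at 91.2. All 4 lower calls were lost without WT replicate 1, 2 or 3, with log2 fold changes of -1.86, -1.85 and -1.73 for Tank, -1.22, -1.11 and -1.29 for Traf2, -1.40, -1.30 and -1.37 for Irf5 and -1.39, -1.39 and -1.35 for Irf7. Irf7 was also lost without knockout replicate 1 or 2 (-1.07 and -1.16).

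Among 13 tested inflammasome and cell death genes, 2 were called higher and 3 lower, with a median of -0.05. Nlrp3, the sensor of another inflammasome, rose from 47.3 ± 5.48 to 170 ± 51.2 (SD, n = 3; limma, adjusted p = 0.00277), and Ripk3, the kinase that Zbp1 engages, from 108 ± 5.70 to 192 ± 20.0 (limma, adjusted p = 0.00797), a call lost without WT replicate 2 (0.77). Gsdmd, the pore-forming target of inflammatory caspases, fell from 358 ± 15.6 to 242 ± 33.9, Casp8 from 272 ± 15.6 to 155 ± 43.1 and Nlrc4 from 60.9 ± 4.25 to 24.0 ± 11.1, and these 3 calls were lost without WT replicate 1, 2 or 3 (-0.61, -0.56 and -0.55 for Gsdmd, -0.85, -0.80 and -0.88 for Casp8, -1.37, -1.47 and -1.41 for Nlrc4). Pycard, the partner of Aim2, was at 58.5 ± 4.66 and 61.9 ± 33.1, with overlapping groups and no call.

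Among 12 tested genes of the interferon receptor and response, 2 were called higher and 4 lower, with a median of -0.88. Jak1 rose from 339 ± 9.66 to 713 ± 62.6 (SD, n = 3; limma, adjusted p = 0.000193) and the receptor chain Ifnar2 from 194 ± 15.3 to 370 ± 80.0. Irf8, a transcription factor of monocytes and dendritic cells and also one of the dendritic markers above, fell from 603 ± 5.79 to 313 ± 44.9 (limma, adjusted p = 0.00115). Irf1 fell from 89.1 ± 19.4 to 34.7 ± 2.20, Usp18, a brake on the receptor, from 81.6 ± 3.73 to 26.7 ± 9.25, and Irf9 from 102 ± 11.9 to 51.0 ± 17.0. Usp18 (-1.66, -1.60 and -1.66) and Irf9 (-1.08, -1.10 and -0.95) were lost without WT replicate 1, 2 or 3, Irf1 without replicate 1 or 2 (-1.26 and -1.18) and Ifnar2 without replicate 2 or 3 (0.86 and 0.88). Of the genes named from the lists, Zc3hav1, Dhx9, Pcbp2, Adar, Ikbke, Nlrp3, Jak1 and Irf8 stayed past the threshold in all 21 alternatives, and the others were lost in at least 1.

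**Figure D5:**
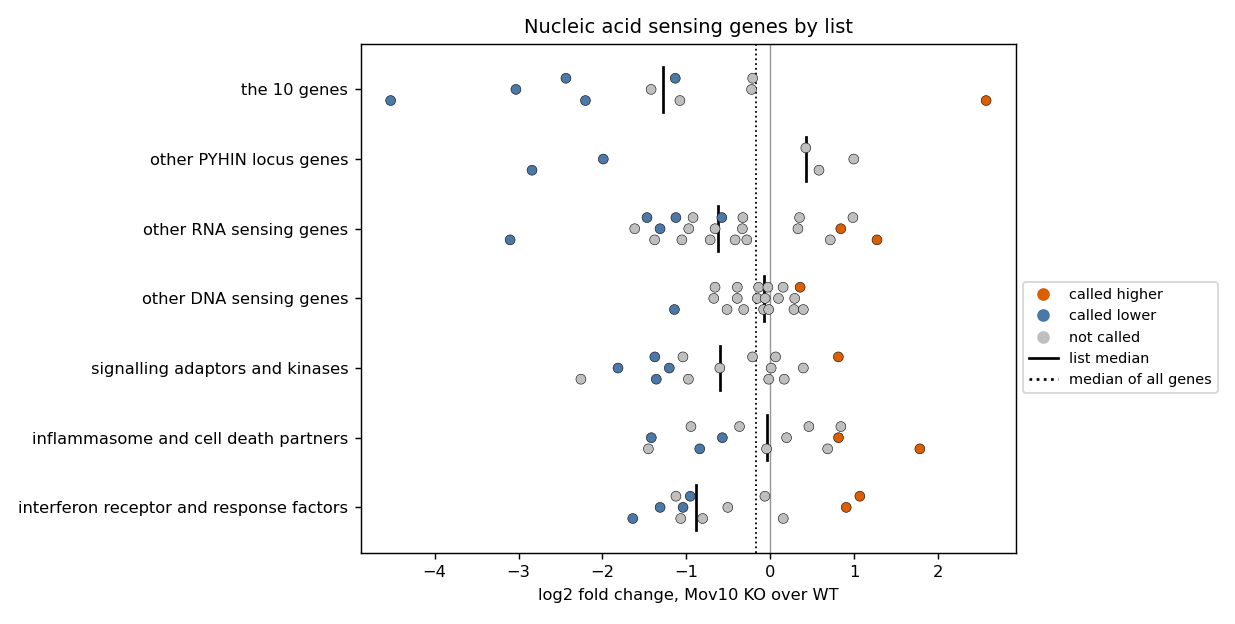
Log2 fold change (knockout over WT) of each tested gene in the 10 genes and in the 6 lists; colour marks genes called higher (orange) or lower (blue), the black tick is the list median and the dotted line the median of all tested genes (-0.17). The lists hold calls in both directions, except the other PYHIN genes, where 2 were called lower and 0 higher (10.9% and 10.3% over all tested genes).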

How the data were processed

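Ribosome footprints of 6 libraries, 3 WT and 3 Mov10 knockout, were read from 1 deposited table. Its signal values are gene counts that the authors divided by 1 factor per library, judged from the deposited values: 99.98% of values above 0 are whole multiples of their library's step (within 0.05 of a read). Positions follow GRCm39, per the submitters' processing notes. The sources used here name no aligner or counter. The 5 genes off their own library's step were left out. The deposited log2 fold changes of the authors are quoted as such and their deposited p-values were not used. Value columns left unused: 0. Since the values are not counts, limma 3.58.1 was run on log2(value + 1) with a variance trend for genes with a mean of at least 1, two-sided, with Benjamini-Hochberg adjustment, and a gene was called at an adjusted p under 0.05. Fitted fold changes are differences of mean log2(value + 1), which for low genes depend on the pseudocount and can lie on either side of the ratio of means. As an alternative, edgeR 4.0.16 on the recovered reads, called 3213 of 10891 genes, 2807 of them also called by limma, all in the same direction. The fit was also run on simulated data, and nothing is concluded from that run here. The 10 genes and all lists were chosen with earlier results of these data known. From each list the text names up to 4 called genes with the smallest p, then up to 2 called the other way; further genes named (Ddx58, Sting1, Pycard and the other PYHIN genes) were chosen after their values were seen. Promoters are RefSeq's, matched by symbol.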

Additional observations from a re-analysis of the deposited data

How the results depend on the processing

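The alternatives covered the test, the scaling, the filter, the pseudocount, the threshold, the genes tested, thinning to equal depth and leaving out each library. Each of them called 4 to 6 of the 10 genes, as did leaving out 1 library. Thinned to equal depth, 4 were called (1 higher and 3 lower), and Aim2 and Ifi207 were not. Over all genes 3628 were called, 1427 at an adjusted p under 0.01, and 1239 to 4585 when 1 library was left out. The lists' 27 calls became 11 at an adjusted p under 0.01 and 9 to 32 when 1 library was left out. Ifih1 turned to a log2 fold change of 0.11 without knockout replicate 1 and ran from -0.51 to 0.11 over the fits without 1 library, and the cause was not tested. The ratio of the PYHIN sum, an alternative added after seeing the data, was 0.719 under upper-quartile scaling and 0.533 with library totals, and 0.598 to 0.654 when 1 library was left out. The median log2 fold change of all genes shifted by 0.18 under upper-quartile scaling, by -0.22 with library totals and by 0.17 under cyclic loess. The medians of edgeR (10891 genes) and DESeq2 (28131 genes) are over other sets of genes than the 17114 tested here and are not compared. Promoter matches numbered 0 with the CT and 5 without it, since the shorter form is contained in the longer. Depth limits Ifi211, Ifi207, Zbp1, Ifi206, Ifi203-ps and Oas2, which had under 10 reads in each knockout library. Comparisons of protein sequence between the PYHIN copies were not run, since no protein table was used here.

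Replicate numbers did not pair the libraries: the deviations of same-numbered libraries from their group means correlated at -0.0294, -0.0055 and -0.0211 over 6307 genes, and no knockout library correlated best with its own number. With the replicate number as a block, 3245 genes were called over all and 6 of the 10 genes, and 28 of the genes in the lists.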
